A study of Ovis aries with 6 samples.

Results

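Pigment production in the skin was examined through 10 genes. The melanocyte is the cell that makes melanin and hands it to the keratinocytes of the growing fibre. ASIP encodes a signal that dermal papilla cells can send to it. Which skin cells made the ASIP message was not measured here. The other genes are expressed by the melanocyte itself, namely MC1R, KIT, MITF, SOX10, TYR, TYRP1, DCT, PMEL and MLANA. The 10 genes were chosen by symbol, not by a measured value, and all 10 were found among the 28394 genes listed. The skin came from 3 Super Merino (SM) ewes, a fine wool breed derived from Merino crosses, labelled 128, 30034 and 30126, and from 3 Small Tail Han (STH) ewes, a coarse wool breed, labelled XW3, XW5 and XW8. All 6 sheep were 9 months old by the sample records, were kept on one farm, received no treatment, and were sampled in autumn behind the shoulder blade after the wool had been shaved. Each sheep gave 1 library of polyadenylated RNA from whole skin, so that melanocytes were a minor part of what was sequenced. Coat colour was not among the labels, but the study states that the wool of the breeds showed no noticeable colour difference by eye. Breed is the only recorded factor that separates the groups, and RNA quality and library batch were not among the labels.

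Melanocytes receive opposing signals at the melanocortin 1 receptor MC1R: melanocortin hormones activate it and favour dark eumelanin, whereas agouti signalling protein, the product of ASIP, blocks it. The receptor tyrosine kinase KIT keeps melanocytes and their precursors alive, and the transcription factors SOX10 and MITF maintain the lineage and switch on the genes of the melanosome. Inside that organelle TYR, TYRP1 and DCT carry out the synthesis of melanin, while PMEL forms the fibrils on which it is laid down and MLANA takes part in the maturation of PMEL. White fleece in sheep is known to be associated with a duplication that carries ASIP together with the neighbouring AHCY gene and the promoter of ITCH.

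Total counts per library ranged from 28870583 to 44645091, and 3 counts of a gene corresponded to 0.0664 to 0.0993 CPM, that is, counts scaled to library size with the TMM factors of edgeR, which is the unit of the values per sheep unless stated otherwise. Among counts from 1 to 20, between 76.4% and 80.2% were even, as when both reads of a pair are counted, so counting intervals based on single reads are too narrow. Tested genes numbered 15320, those that reached 10 counts in 3 or more sheep. With edgeR's quasi-likelihood test 0 of them (0.00%) had both an adjusted p under 0.05 and a fold change over 1.5 in either direction, the thresholds used below, whereas 2762 had an unadjusted p under 0.05. On the same thresholds 443 genes (2.89%) passed with DESeq2 and 352 (2.30%) with edgeR's likelihood ratio test. SM sheep 128 weighed on this outcome, since without it 203 genes passed towards SM and 972 towards STH.

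The 10 genes spanned a very wide range of expression. The comparison between genes used RPKM, reads scaled to exon length and library size, put on the TMM scale of the counts. ASIP stood at 67.3 ± 16.6 (SD, n = 6 sheep) and was above 95.6% of the tested genes. MITF followed at 2.66 ± 0.63, then SOX10 at 1.35 ± 0.45, KIT at 1.29 ± 0.36 and DCT at 1.24 ± 0.30. The receptor MC1R had a mean of 0.674 ± 0.328 and the fibril protein PMEL 0.504 ± 0.099. The lowest 3 were TYR, the rate-limiting enzyme of melanin synthesis, at 0.0658 ± 0.0299, TYRP1 at 0.0188 ± 0.0212 and MLANA at 0.0158 ± 0.0086. The skin therefore held abundant message for the antagonist of pigmentation and little for the melanosome.

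Most steps in that order were smaller than the spread between sheep. Only ASIP over MITF, a 25.3-fold difference of means, and PMEL over TYR, a 7.66-fold difference, separated neighbours without any overlap between sheep. MITF exceeded SOX10 in 5 of 6 sheep and DCT exceeded MC1R in 5 of 6, although the ranges overlapped. SOX10, KIT and DCT could not be ordered, since SOX10 was above KIT in 2 of 6 sheep and KIT above DCT in 2 of 6. TYRP1 and MLANA likewise could not be separated from each other, with TYRP1 above MLANA in 3 sheep.

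**Figure D1:**
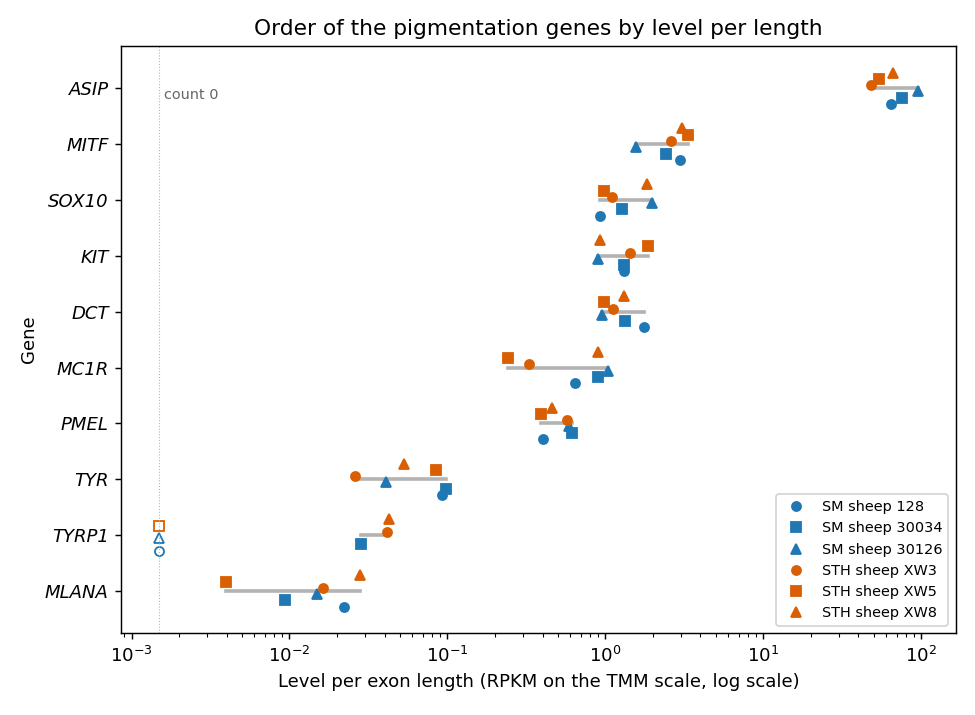
Level per exon length (RPKM on the TMM scale, logarithmic axis) of each of the 10 genes in each of the 6 sheep, ordered by the mean; grey bars span the lowest to the highest sheep with a count above 0, and open symbols on the left mark a count of 0. ASIP lies apart on the right, at 47.9 to 94.8, and TYR, TYRP1 and MLANA lie below the other genes.

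The proportions between the genes also differed among sheep of one breed. On the per-length scale the level of ASIP was 36.8, 57.2 and 99.8 times that of DCT in SM sheep 128, 30034 and 30126, whereas it was 42.6 times in XW3, 55.1 times in XW5 and 50.8 times in XW8 of the STH breed. The breeds overlapped, with the SM sheep at both ends of the range. Against its receptor MC1R, the level of ASIP was 84.3 to 101 times higher in SM and 74.1 to 226 times higher in STH sheep, so that the SM range lay inside that of STH.

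Between the breeds, none of the 10 genes separated the 3 SM from the 3 STH sheep, compared with 25.6% of all tested genes whose breeds did not overlap. TYRP1 and MLANA were below the count filter, and the remaining 8 genes were tested with all other genes. By the quasi-likelihood test, DESeq2 and the likelihood ratio test alike, 0 of the 8 met the thresholds. Of all tested genes 0.00%, 2.89% and 2.30% met them in these 3 tests, in that order. The count of 0 therefore does not set the 8 genes apart. At an unadjusted p under 0.05 there was 1 gene, ASIP, or 12.5% of the 8 against 18.0% of all genes. In 6 of the 8 the estimate was higher in SM, against 51.4% of all genes, and the median log2 fold change of SM over STH was 0.21 beside 0.02 for all genes.

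**Figure D2:**
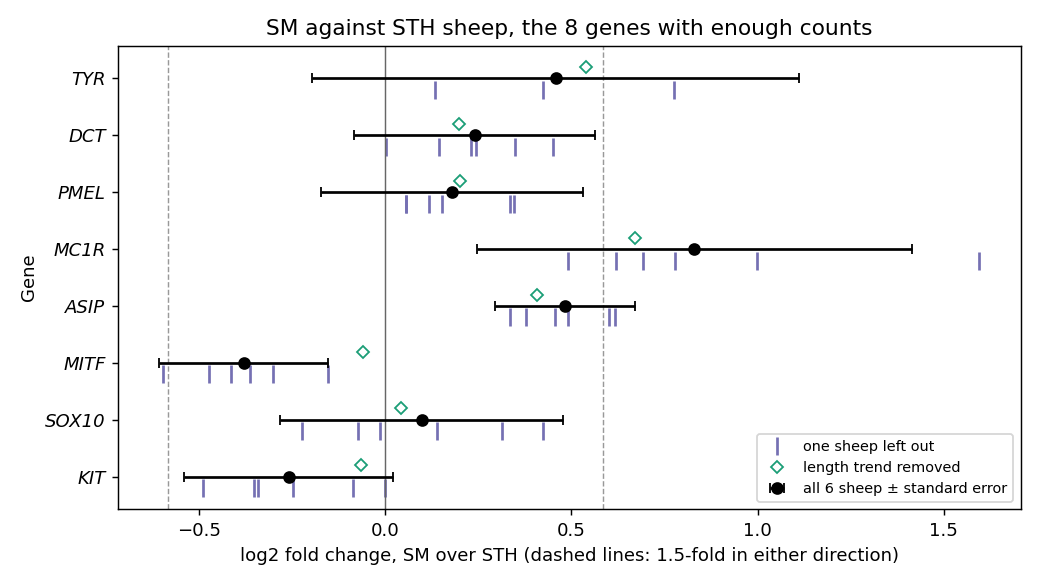
Log2 fold change of SM over STH for the 8 tested genes from edgeR's quasi-likelihood test, with bars of 1 standard error ticks for the values with each sheep left out, diamonds for the values after removal of the exon length trend, and dashed lines at a 1.5-fold difference. ASIP, at 0.48 with a standard error of 0.19, is the only gene with an unadjusted p under 0.05, and the values of SOX10 fall on both sides of 0.

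ASIP, the gene of the secreted agouti antagonist, is placed by the Oar_v4.0 assembly on chromosome 13 from 63051795 to 63128668 on the plus strand. It was measured at 141, 165 and 206 CPM in SM sheep 128, 30034 and 30126 and at 104 CPM (XW3), 118 CPM (XW5) and 144 CPM (XW8) in STH sheep. The breeds met at their edges: the highest STH sheep was just above the lowest SM sheep. The means were 171 ± 33.1 and 122 ± 20.4 (SD, n = 3 each), and the log2 fold change was 0.48 with a standard error of 0.19 in edgeR's quasi-likelihood test (unadjusted p = 0.0316, adjusted p = 0.260). With DESeq2 the adjusted p was 0.174. The unadjusted p was under 0.05 in all 9 alternative fits with 6 sheep but in only 2 of the 6 fits with 1 sheep left out, and the fold change was lowest, 0.34, without SM sheep 30126.

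Examined next were AHCY, which the white-fleece duplication named above carries, and ITCH, of which it carries only the promoter. AHCY, which hydrolyses S-adenosylhomocysteine, gave a log2 fold change of 0.48 with a standard error of 0.41 in edgeR's quasi-likelihood test (unadjusted p = 0.271, adjusted p = 0.504). ITCH, a ubiquitin ligase, was at 62.9 ± 23.2 CPM in SM and 95.8 ± 9.85 CPM in STH sheep, with a log2 fold change of -0.61 (unadjusted p = 0.0426, adjusted p = 0.270). For ITCH all 3 STH sheep were above all 3 SM sheep, which was the case for 13.3% of tested genes. Its sign was opposite to that of the estimates for ASIP and AHCY. However, its unadjusted p was under 0.05 in only 1 of the 6 fits with 1 sheep left out (adjusted p = 0.0417 without sheep 128). Its log2 fold change was -0.34 without sheep 30126. The unadjusted p of ITCH was also above 0.05 with upper quartile scaling (0.0530) and with the stricter count filter (0.0510). Markers of the dermal papilla had a summed level of 213 to 268 CPM in SM and 184 to 214 CPM in STH sheep. That sum was carried by LEF1 and WIF1, with means of 167 and 28.4 CPM over the 6 sheep. LEF1 was also listed among the transcription factors below. Of the 7 markers tested, none had an unadjusted p under 0.05. By the quasi-likelihood test, DESeq2 and the likelihood ratio test, 0 passed the thresholds. The estimate was higher in SM for 6 of the 7, against 51.4% of all genes. In ALPL and BMP6 all 3 SM sheep were above all 3 STH sheep, as in 12.3% of tested genes. The part of the papilla markers in the ASIP values was not tested. In whole skin fewer cells of a type and less RNA per cell cannot be told apart.

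MC1R, the receptor that ASIP blocks, is encoded on chromosome 14 from 14184666 to 14185486 on the plus strand. Its message stood at 0.760, 1.06 and 1.22 CPM in SM sheep and 0.389, 0.284 and 1.06 CPM in STH sheep, in the order of sheep used above. STH sheep XW8 lay among the SM sheep, and XW3 and XW5 lay below all of them. The log2 fold change, 0.83, was the largest of the 8 genes, but with 12 to 48 counts per sheep its standard error was 0.58 (edgeR's quasi-likelihood test, unadjusted p = 0.190, adjusted p = 0.427). Without XW8 it was 1.60 (unadjusted p = 0.0224, adjusted p = 0.4001), and without XW5 it was 0.49. Its values therefore rested on which STH sheep were included.

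KIT, the receptor of stem cell factor, is on chromosome 6 from 70068578 to 70152325 on the plus strand. Its values were 11.4, 11.4 and 7.87 CPM in SM sheep and 12.5, 16.2 and 8.01 CPM in STH sheep. The breeds overlapped, with 1 low sheep in each, SM 30126 and STH XW8. Its log2 fold change was -0.26 with a standard error of 0.28 (edgeR's quasi-likelihood test, unadjusted p = 0.380, adjusted p = 0.597), and it was -0.002 without XW5, the sheep with the highest value. After removal of the trend with exon length it was -0.07.

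Mast cells of the dermis also express KIT and depend on it. Of 8 mast cell markers, 7 were found and tested, 0 of them had a count of 0 in any sheep, and their summed level was 5.10 to 9.22 CPM in SM and 9.83 to 23.7 CPM in STH sheep. The highest sum and the highest KIT value were both in XW5, and the lowest of both were in SM sheep 30126. In XW8, however, the sum of 9.83 CPM was above all 3 SM sheep, whereas KIT, at 8.01 CPM, was below SM sheep 128 and 30034. The mast cell protease CPA3 (log2 fold change -1.45, unadjusted p = 0.0153, adjusted p = 0.247) and the prostaglandin synthase HPGDS (-2.04, unadjusted p = 0.0139, adjusted p = 0.247) were higher in STH at the unadjusted level of edgeR's quasi-likelihood test, and 6 of the 7 estimates were higher in STH. CPA3 and HPGDS were 28.6% of the 7 markers, against 18.0% of all genes at that level. HPGDS rested on XW5, at 5.07 CPM against 1.297 and 0.927 CPM in the other STH sheep, and without XW5 its log2 fold change was -0.90 (unadjusted p = 0.123). For CPA3 the adjusted p was 0.0405 without sheep 128, and the unadjusted p was 0.0606 without XW5. The part of mast cells in the KIT values was not tested.

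MITF, the master regulator of melanocyte genes, is on chromosome 19 from 31596190 to 31826194 on the minus strand. A second gene model, LOC105603449, overlaps it on the other strand and had a count of 0 in every sheep. MITF was at 67.7, 55.0 and 36.0 CPM in SM sheep and at 59.8, 76.3 and 70.5 CPM in STH sheep. SM sheep 128 fell within the STH range, while the other 2 SM sheep were below it. SM over STH gave a log2 fold change of -0.38 with a standard error of 0.23 (edgeR's quasi-likelihood test, unadjusted p = 0.129, adjusted p = 0.361). It was -0.06 once the trend with exon length was removed, -0.60 without sheep 128 (unadjusted p = 0.0194, adjusted p = 0.103) and -0.15 without sheep 30126. MITF is transcribed from several promoters in many cell types, and the counts were summed over the gene, so the melanocyte form was not measured separately.

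SOX10, a transcription factor of the neural crest, is on chromosome 3 from 213503019 to 213512467 on the minus strand, where the opposite-strand model LOC105609490 had no more than 2 counts in any sheep. The gene reached 2.31, 3.17 and 4.89 CPM in SM sheep and 2.72, 2.44 and 4.57 CPM in STH sheep. Each breed held 1 high sheep, 30126 and XW8, and the ranges nearly coincided. The log2 fold change was 0.10 with a standard error of 0.38 (edgeR's quasi-likelihood test, unadjusted p = 0.804, adjusted p = 0.892), and its sign turned when sheep 30126, XW3 or XW5 was left out, to -0.22, -0.01 and -0.07. Schwann cells, which also express SOX10, had markers with a summed level of 374 to 459 CPM in SM and 387 to 396 CPM in STH sheep. The highest sum and the highest SOX10 value were both in sheep 30126. In edgeR's quasi-likelihood test 2 of the 8 markers had an unadjusted p under 0.05 (25%, against 18.0% of all genes). These were CDH19 (log2 fold change -1.02) and MAL (-0.87, listed as LOC101115527), both higher in STH. Both also passed the thresholds with DESeq2 (2.89% of all genes) and with the likelihood ratio test (2.30%). The sum was carried by ERBB3 and PMP22, with means of 234 and 108 CPM over the 6 sheep, whereas CDH19 (4.56 CPM) and S100B (3.01 CPM) were at their lowest in 30126. The part of Schwann cells in the SOX10 values was not tested.

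**Figure D3:**
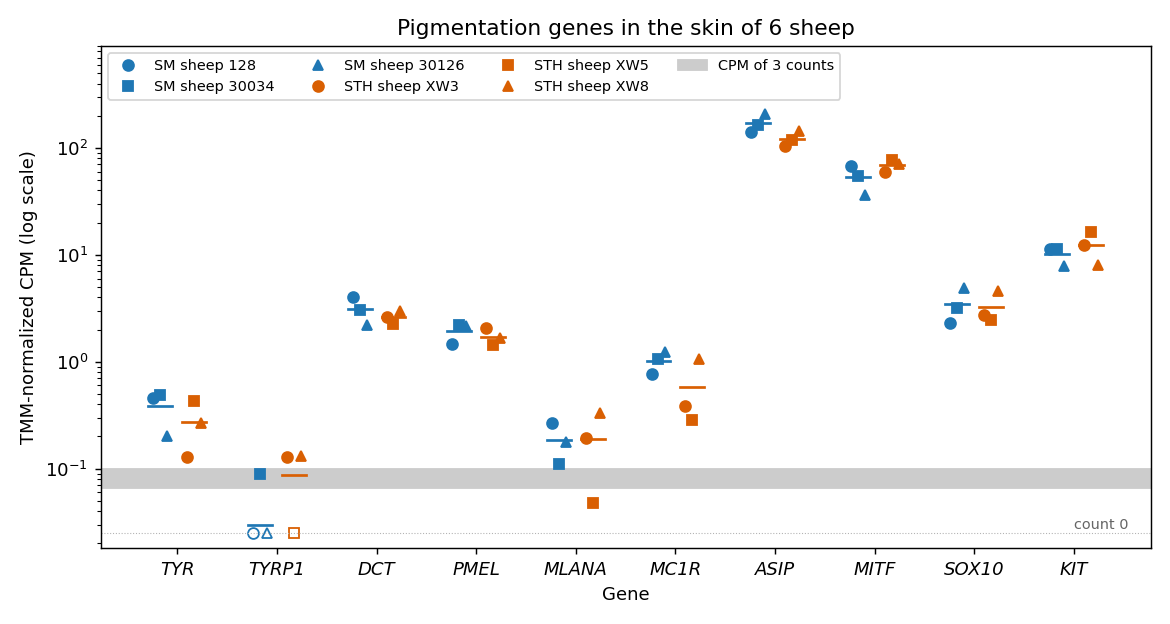
TMM CPM (logarithmic axis) of each of the 10 genes in each sheep, by breed (SM blue, STH orange), each point a sheep and each line the mean of 3 sheep; the grey band is the CPM of 3 counts, and open symbols mark a count of 0. The breeds overlap in every gene, and in ASIP and MC1R the crossing is between the lowest SM and the highest STH sheep alone.

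The melanosome genes were all low. TYR, on chromosome 21 from 5718880 to 5833349 on the minus strand, was detected at 0.463, 0.487 and 0.204 CPM in SM sheep and 0.130, 0.426 and 0.265 CPM in STH sheep, from 4 to 22 counts per sheep. High and low values occurred in both breeds. In XW3, the lowest, the 95% Poisson interval of its 4 counts was 0.0353 to 0.332 CPM, and in 30034, the highest, that of 22 counts was 0.305 to 0.737 CPM, so the extremes of the 6 sheep were hardly resolved. The log2 fold change was 0.46 with a standard error of 0.65 (edgeR's quasi-likelihood test, unadjusted p = 0.502, adjusted p = 0.693).

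TYRP1, whose enzyme acts late in the eumelanin pathway, is on chromosome 2 from 80644559 to 80661477 on the plus strand. It had 4 counts in each of 30034, XW3 and XW8 and 0 in each of 128, 30126 and XW5. In CPM the SM sheep was at 0.0886 and the STH sheep at 0.130 and 0.132, and the sheep at 0 allowed up to 0.0992, 0.0764 and 0.0711 CPM at 3 counts. Detection in 1 SM and 2 STH sheep was at the limit of the sequencing, and no fold change is given. If pairs were counted as 2 reads, each of the positive sheep rested on very few fragments.

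DCT, the dopachrome tautomerase, on chromosome 10 from 69417007 to 69461605 on the minus strand, was the best expressed of the 3 enzymes. Its values were 4.07, 3.06 and 2.19 CPM in SM sheep and 2.59, 2.27 and 3.01 CPM in STH sheep. The SM sheep held both the highest and the lowest value, and the STH sheep lay between them. For DCT the log2 fold change was 0.24 with a standard error of 0.32 (edgeR's quasi-likelihood test, unadjusted p = 0.479, adjusted p = 0.676), and without sheep 128 it was 0.001.

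PMEL lies on chromosome 3 from 163065394 to 163074252 on the plus strand. It was at 1.45, 2.21 and 2.14 CPM in SM sheep and at 2.08, 1.42 and 1.65 CPM in STH sheep. Sheep 128, which had the most DCT, had the least PMEL of its breed, and the breeds overlapped over most of their range. For PMEL the log2 fold change was 0.18 with a standard error of 0.35 (edgeR's quasi-likelihood test, unadjusted p = 0.623, adjusted p = 0.784).

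MLANA, the melanoma antigen recognized by T cells, is on chromosome 2 from 73523552 to 73542109 on the plus strand. With 8, 5 and 7 counts in SM sheep and 6, 2 and 10 counts in STH sheep it stood at 0.264, 0.111 and 0.178 CPM and at 0.195, 0.0474 and 0.331 CPM. Both extremes were in STH, and the SM values lay between them. As for TYRP1, no fold change is given at this depth. Without the count filter both genes entered edgeR's quasi-likelihood test, with an adjusted p of 0.680 for TYRP1 and 0.987 for MLANA.

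Summed over TYR, TYRP1, DCT, PMEL and MLANA, the melanosome genes reached 6.25, 5.96 and 4.71 CPM in SM sheep and 5.12, 4.17 and 5.39 CPM in STH sheep. The breeds overlapped, with 30126 below 2 of the STH sheep. These sums came from 158 to 269 counts in a library, and DCT made up 46.5% to 65.1% of them. The defining markers of the melanocyte were thus present in all 6 sheep as a group, carried mainly by DCT and PMEL, while TYRP1 was listed at 0 in 3 sheep.

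The 8 tested genes varied more among sheep of one breed than a typical gene did. The ratio of the highest to the lowest sheep had a median, over these genes, of 1.73 within SM and 1.67 within STH, compared with 1.46 and 1.31 for all tested genes. Several of them are low in counts, and the ratio was not compared at matched expression. The most variable was MC1R in STH, at 3.73, followed by TYR at 3.29 in STH and 2.39 in SM. ASIP, with 3216 to 8097 counts per library, had ratios of 1.46 and 1.38.

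**Figure D4:**
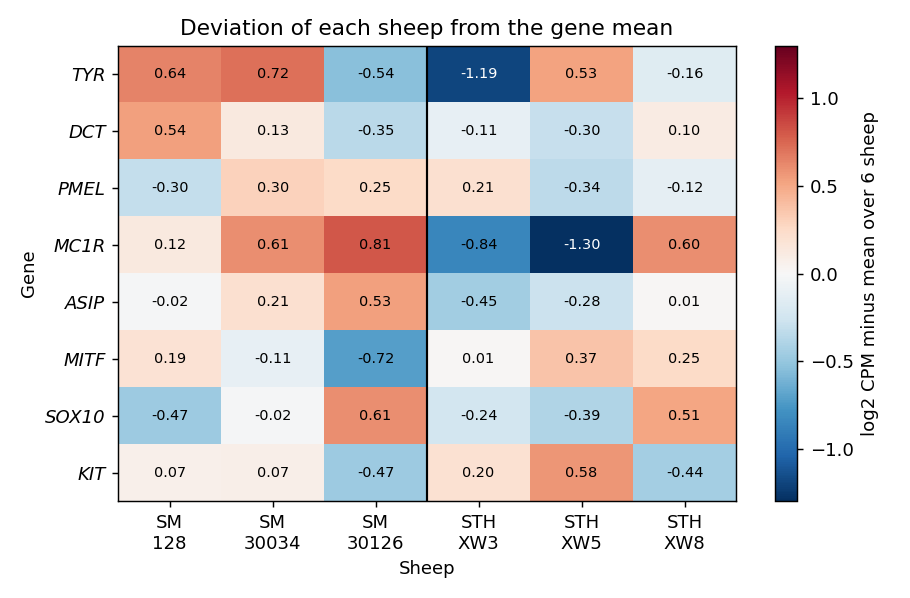
Log2 deviation of each sheep from the mean of the 6 sheep for the 8 tested genes, with the sheep as columns, SM on the left and STH on the right. Sheep 30126 is high for ASIP, MC1R and SOX10 and low for MITF and KIT, and XW5 shows the opposite pattern. ASIP, MC1R and SOX10 have a shorter exon length than MITF and KIT.

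The sheep did not move together over the whole group of genes. SM sheep 30126 had the highest ASIP, MC1R and SOX10 of all 6 and the lowest MITF and KIT. STH sheep XW5 had the highest MITF and KIT and the lowest MC1R and PMEL. This division placed ASIP, MC1R and SOX10 on one side and MITF and KIT on the other, and it cut across the melanosome genes: in 30126, DCT was the lowest of the 6 sheep, TYR was below its mean and PMEL above it. The summed level of the follicle matrix and cortex markers, 4315 CPM in 30126 and 1468 CPM in XW5, was also the highest and the lowest of the 6 sheep, and its part in these values was not tested.

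The mean z score of the 3 tested melanosome genes TYR, DCT and PMEL was used to find genes of like pattern. These 3 genes did not vary together. Over the 6 sheep r was 0.47 for TYR with DCT, -0.46 for TYR with PMEL and -0.31 for DCT with PMEL. Their mean is therefore not a pattern that the 3 genes share. Over the 6 sheep the closest were HS3ST3B1 (r = 0.985), a heparan sulphate sulphotransferase, CD247 (r = 0.983), a chain of the T cell receptor complex, SOCS3 (r = 0.981), a cytokine feedback inhibitor, the nuclear receptor NR4A2 (r = 0.977) and the membrane protein TMEM265 (r = 0.976). With 6 points that share library and depth, 53 of 15317 genes (0.346%) exceeded 0.9, and these values are a description of these sheep only. Among the pigmentation genes outside the mean, MC1R had r = 0.50 and ASIP 0.32, MITF 0.03, KIT -0.05 and SOX10 -0.18. Since the mean is not a shared pattern, these r values are not read as a result on the regulators MITF and SOX10.

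To place the 10 genes in their pathway, 58 other pigmentation genes were listed by function and 57 could be tested. At an unadjusted p under 0.05 there were 10, or 17.5% against 18.0% of all genes, with 2 higher in SM (7.21% of all genes; 1 of them, SLC45A2, met the count filter only through SM sheep) and 8 higher in STH (10.8% of all genes). The quasi-likelihood test called 0 of the 57 (0.00% of all genes). Only 1, KITLG, passed in DESeq2 (2.89% of all genes) and in the likelihood ratio test (2.30%). The median log2 fold change was -0.08, beside 0.02 for all genes, and it kept its sign under all alternatives run.

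**Figure D5:**
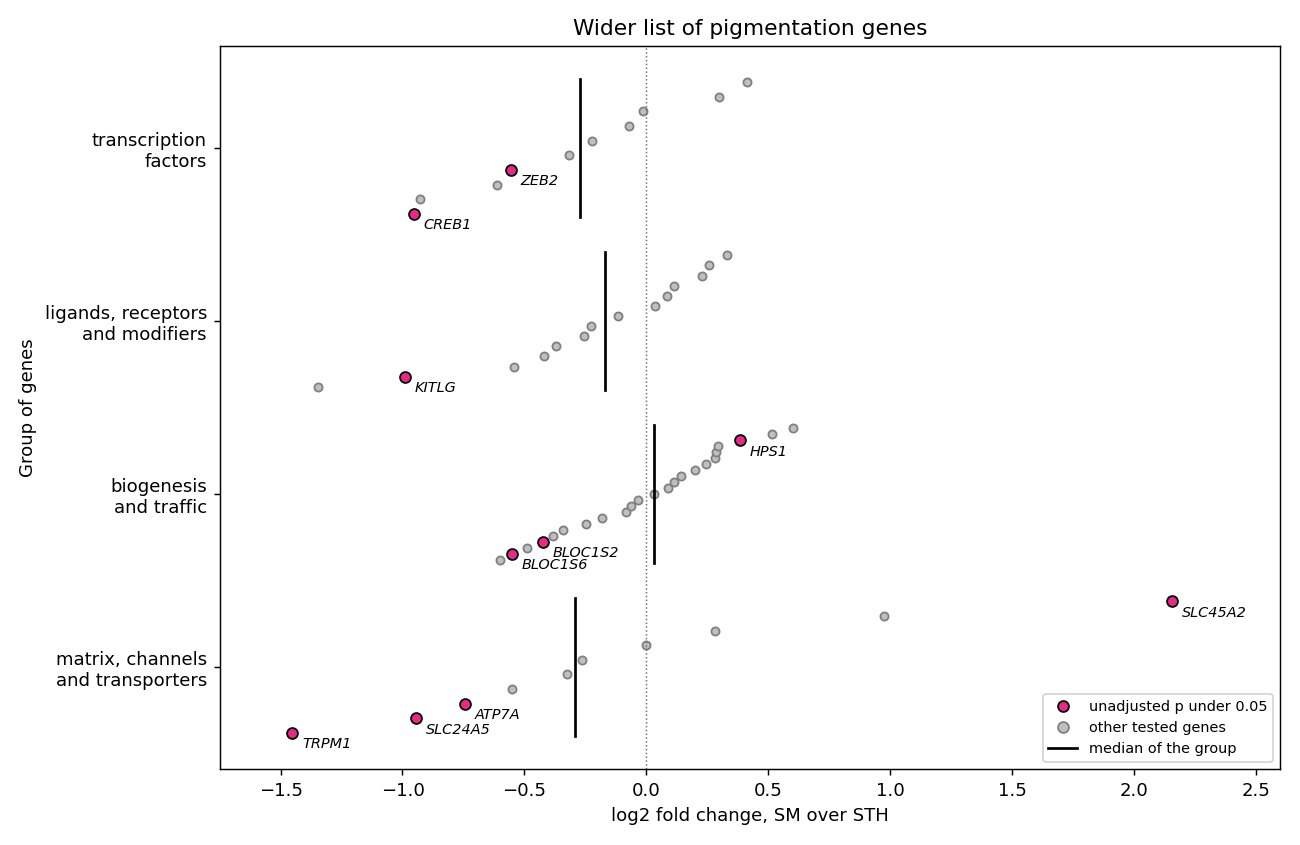
Log2 fold change of SM over STH for the 57 tested genes of the wider pigmentation list in 4 functional groups, from edgeR's quasi-likelihood test; coloured points have an unadjusted p under 0.05 and vertical bars are group medians. Coloured points lie on the STH side (below 0) except SLC45A2 and HPS1.

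Ligands and receptors included KITLG, the stem cell factor that activates KIT. KITLG was measured at 49.9, 51.2 and 25.1 CPM in SM sheep and at 64.5, 95.5 and 90.7 CPM in STH sheep. All 3 STH sheep were above all 3 SM sheep, which was the case for 13.3% of tested genes. The log2 fold change was -0.99 with a standard error of 0.28 (edgeR's quasi-likelihood test, unadjusted p = 0.00660, adjusted p = 0.243), and the adjusted p was 0.0335 with DESeq2, 0.0426 with the likelihood ratio test and 0.0455 with edgeR's exact test. The unadjusted p was under 0.05 in 6 of 6 fits with 1 sheep left out. KITLG is among the genes the study listed from these same libraries, which is not independent evidence of its direction. For its receptor KIT the estimate was also on the STH side but within the spread between sheep. The other 13 tested genes of the group had an unadjusted p of 0.05 or more, among them the endothelin receptor EDNRB (60.0 ± 14.6 CPM in SM and 70.3 ± 6.51 CPM in STH) and ATRN, the gene of attractin, a co-receptor of agouti protein (78.8 ± 2.82 and 85.4 ± 2.07 CPM).

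Among 10 genes of the melanosome matrix, channels and transporters, 4 had an unadjusted p under 0.05 (40%, against 18.0% of all genes). None passed the thresholds in any of the 3 tests. SLC45A2, a transporter needed for melanin synthesis, was low in all sheep, at 0.368 ± 0.083 CPM in SM and 0.082 ± 0.104 CPM in STH, with 0 counts in XW3 (unadjusted p = 0.0456, adjusted p = 0.272, edgeR's quasi-likelihood test). It met the count filter only through the SM sheep, the breed in which it was higher, so its p is not read as a result, and the unadjusted p was 0.0743 without the filter and 0.0669 with DESeq2. Higher in STH were the melanosomal exchanger SLC24A5 (log2 fold change -0.94, unadjusted p = 0.0401), the melanocyte channel TRPM1 (-1.45, unadjusted p = 0.0291) and ATP7A, the copper pump that supplies tyrosinase (-0.74, unadjusted p = 0.0208), with adjusted p between 0.252 and 0.267 in edgeR's quasi-likelihood test. With 1 sheep left out the unadjusted p was under 0.05 in 2 of 6 fits for SLC24A5, 3 of 6 for TRPM1 and 3 of 6 for ATP7A, whose adjusted p was 0.0320 without sheep 128. TRPM1 was low, at 0.326 ± 0.160 CPM in SM and 0.878 ± 0.256 CPM in STH sheep. Its unadjusted p was 0.0616 after removal of the exon length trend in edgeR's quasi-likelihood test. The most abundant gene of the group, GPNMB, had 78.2 ± 10.04 CPM in SM and 93.8 ± 14.5 CPM in STH sheep (adjusted p = 0.385). It is also made by macrophages, whose 3 tested markers summed to 124 to 164 CPM in SM and 119 to 134 CPM in STH sheep.

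The 23 genes of melanosome biogenesis and traffic, most of which serve lysosome-related organelles in many cell types, were divided evenly, 12 with a higher estimate in SM and 11 in STH, and their median log2 fold change was 0.03. An unadjusted p under 0.05 was found for HPS1 (0.38, higher in SM), BLOC1S2 (-0.43) and BLOC1S6 (-0.55), subunits of the complexes that sort cargo to the melanosome, with adjusted p between 0.247 and 0.256 in edgeR's quasi-likelihood test. These 3 genes were 13.0% of the 23, against 18.0% of all genes. With 1 sheep left out the unadjusted p was under 0.05 in 3 of 6 fits for HPS1 and in 5 of 6 for each of BLOC1S2 and BLOC1S6. MYO5A, the motor that holds melanosomes at the cell tips, was at 99.5 ± 13.6 CPM in SM and 118 ± 18.2 CPM in STH sheep (adjusted p = 0.404).

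Of 10 transcription factors, 8 had a higher estimate in STH, whereas 51.4% of all genes were higher in SM. Among the 8, TFAP2A (log2 fold change -0.01) and SNAI2 (-0.07) lay near 0. After removal of the exon length trend TFAP2A was at 0.07 and SNAI2 at -0.21. In edgeR's quasi-likelihood test 2 of the 10 had an unadjusted p under 0.05 (20%, against 18.0% of all genes). These were CREB1, which relays cyclic AMP signals from MC1R to the MITF promoter (23.5 ± 9.92 CPM in SM and 45.4 ± 12.8 CPM in STH, log2 fold change -0.95, adjusted p = 0.247), and ZEB2 (78.1 ± 23.7 and 114.8 ± 13.2 CPM, log2 fold change -0.56, adjusted p = 0.267). The lineage factor PAX3 was low, at 0.338 ± 0.164 CPM in SM and 0.514 ± 0.071 CPM in STH sheep. With 1 sheep left out the unadjusted p of CREB1 was under 0.05 in 4 of 6 fits (adjusted p = 0.0282 without sheep 128), and that of ZEB2 in 1 of 6. For ZEB2 the unadjusted p was also 0.0911 after removal of the exon length trend (log2 fold change -0.31) and 0.0519 with upper quartile scaling. CREB1, like KITLG, is named in the gene lists of the study. The shares of genes on either side depend on the scaling, since 40.0% of all genes with an unadjusted p under 0.05 were higher in SM here but 50.6% with upper quartile normalization and 52.7% after removal of the exon length trend.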

How the data were processed

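RNA from the skin of 3 SM and 3 STH ewes was sequenced with 1 library per sheep. The authors checked the reads with FastQC and mapped them to Oar_v4.0 in CLC Genomics Workbench, without pooling. The total counts per gene deposited by the authors are whole numbers without normalization, from 28870583 to 44645091 per sheep. RPKM values deposited by the authors were put on the TMM scale and used to compare genes. The TPM deposited by the authors and a score that the authors call CPM were not used. The study's methods give a younger age for the ewes than the sample records.

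Sheep were grouped by the breed in the labels. Genes reaching 10 counts in 3 or more sheep were tested with edgeR 4.0.16 in R 4.3.3 (TMM, estimateDisp, glmQLFit, glmQLFTest) with breed as the only term, with Benjamini-Hochberg adjustment over all tested genes. A gene was called at an adjusted p under 0.05 if its log2 fold change also exceeded 0.585 (1.5-fold) in size. A standard error is the log2 fold change divided by the square root of F. Correlations used log2 CPM with a prior count of 2. Each sheep is taken as a replicate, and p values measure the spread between sheep. Intervals and floors cover counting error only. Alternatives were edgeR's exact and likelihood ratio tests, DESeq2 1.42.0, another dispersion estimate, RLE and upper quartile scaling, no filter or at least 50 counts, removal of a loess trend on exon length (span 0.5), and each sheep left out. The tests were run on simulated data first.

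The 10 genes, the wider list and the markers were chosen with earlier results of these data known. Named genes are the 10, the listed genes at an unadjusted p under 0.05, at most 6 others per list with the highest CPM, and the 5 of most similar pattern. PAX3 was named after its values were seen. Identifiers of all 10 genes matched the RefSeq name table. Sequences, exon structure and promoters were not analysed here. A planned comparison of RPKM for genes with no counts was not run, since 0 of the 10 had a count of 0 in every sheep. Among the other marker lists, an unadjusted p under 0.05 was found for 3 of 4 epidermis genes and 1 of 5 fibroblast genes, all higher in STH, for 1 of 4 follicle matrix and cortex genes, higher in SM, and for 0 of 3 macrophage genes. Over all tested genes 18.0% had an unadjusted p under 0.05, with 7.21% higher in SM and 10.8% higher in STH. MAL and KRT14 were matched by gene identifier, and CMA1, KRT85, KRT31 and CD163 were not found by symbol.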

Additional observations from a re-analysis of the deposited data

How the results depend on the processing

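The 10 genes gave 0 calls past the thresholds under every alternative that tested them, with the smallest adjusted p 0.0748, for ASIP without SM sheep 128. In several of these fits 0 of all tested genes passed, so that no call was possible. These were RLE and upper quartile scaling, at least 50 counts, and the fits without XW5 or XW8. TYR could be tested in only 3 of the 6 fits with a sheep left out. Depth limits TYR, TYRP1, MLANA and MC1R most.

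Of the 115 log2 fold changes recomputed for the 8 tested genes, 112 kept their direction. None crossed the adjusted threshold, which few or no genes passed in most of these fits. SOX10 ranged from -0.22 to 0.42 with a sheep left out and reversed to -0.22 without SM sheep 30126, -0.01 without STH sheep XW3 and -0.07 without XW5. The cause was not tested. The median over the 8 genes stayed between 0.06 and 0.39 with a sheep left out, and that of the wider list between -0.14 and -0.05. The number of the 8 genes at an unadjusted p under 0.05 was 0 to 2 with a sheep left out, with 2 without SM sheep 128 or without STH sheep XW8 and 0 without any 1 of the other 4. For the wider list it was 1 (without XW5) to 19 (without 128).

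Over all genes, those past the thresholds numbered 156 higher in SM and 287 higher in STH with DESeq2, 133 and 219 with the likelihood ratio test, 128 and 204 with the exact test, 0 and 2 with the other dispersion estimate, 1 and 1 without a filter, and 2 and 6 with the length trend removed. With a sheep left out they numbered 0 to 203 and 0 to 972, the highest both without sheep 128. Genes at an unadjusted p under 0.05 then numbered 1108 (without XW5) to 4609 (without 128), with 473 to 1932 higher in SM and 635 to 2677 higher in STH. The cause of these shifts was not tested.

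No paired analysis was possible because the sheep are different animals whose labels (128, 30034 and 30126, and XW3, XW5 and XW8) pair none of them across the breeds.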
